A study of Mus musculus with 18 samples.

Results

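The genes described here act in DNA replication and the S phase of the cell cycle. They were taken as a list of 48 genes, and each was read from the probe set that carried its symbol alone and had the highest mean over the 18 arrays. Of the 48 genes, 47 had such a probe set, out of 18193 genes on the array, and Chaf1a, a subunit of the chromatin assembly factor, was not analysed here. Retinas were taken at P0, P7 and adult age from Plk3-KO animals and from WT animals of the same litters, with 3 arrays in each of the 6 groups. The Plk3-KO animals come from a knockout line of polo-like kinase 3, and the line, which had carried the Rd1 allele from a Black Swiss background, was crossed to C57Bl/6 until it was free of that allele. All animals are labelled C57Bl/6, no treatment was given, and the sources used here do not say how many animals stand behind an array. The Plk3 probe set cannot show the loss of the deleted part of the gene, because it lies outside that part. The study reports a higher signal of this probe set in Plk3-KO retinas. In the tests used here, 0 of the tested probe sets passed between genotypes at any age, so that rise was not recovered as a call.

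Before a cell can copy its DNA, the origin recognition complex, Cdc6 and Cdt1 load the ring of MCM helicase onto chromatin, a step called licensing, and geminin blocks Cdt1 afterwards so that no origin fires again. The Dbf4-Cdc7 kinase, Cdc45, the GINS complex and Mcm10 then activate the helicase, the polymerases copy the strands on the sliding clamp Pcna, and ribonucleotide reductase with other enzymes supplies the nucleotides. In the mouse retina progenitor cells still divide at birth and leave the cell cycle over the following days, so most cells of the adult retina no longer enter S phase.

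Signals are given on the log2 scale of the deposited MAS5 values, where 1 unit is a 2-fold difference. Signals are compared within a probe set only, never between genes. A mean above 7 was the minimum that the study's own methods used to call a gene expressed. A gene is called lower or higher where its adjusted p in limma was under 0.05. Values after ± are standard errors of the fitted difference, with 3 arrays in each group.

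The arrays did not all look alike. Array medians ran from 6.8 to 7.1 at P0, from 6.4 to 6.9 at P7 and from 6.3 to 7.2 in the adult. The difference between the 3′ and 5′ control probe sets of actin, a sign of RNA or labelling quality, was 1.0 to 1.3 at P0, 0.8 to 1.6 at P7 and 1.6 to 2.7 in the adult, with the highest adult value on Plk3-KO array 3. At P7, Plk3-KO array 2 and WT array 3 both stood at 1.6, against 0.8 to 1.1 on the other P7 arrays. Those P7 arrays also carried the highest mean of the 47 genes at that age, 8.47 and 8.73, against 8.23 to 8.44 on the others. The part of RNA quality in the results was not tested. Since whole retinas were measured, fewer cycling cells and less RNA per cell cannot be told apart in any change with age.

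Promoters of 6 of the genes are shown, from MCM genes and Rrm2, which fell, and Rpa1, which rose. Of the MCM windows, only those that held an E2F word, as defined below, are shown. The Mcm2 window and another Mcm7 window held no such word and are not shown, although both genes fell. The window runs from 250 bases before to 50 bases after an annotated start, taken from RefSeq on GRCm38.p6, and 39 of the 48 genes had at least 1 such window. Capitals mark matches to the E2F words TTTCCCGC, TTTCGCGC, TTTGCCGC and TTTGGCGC on either strand. E2F factors are known to bind words of this kind at S phase genes, and a match is a description of the letters only. Mcm3 (chr1:20820263-20820562, minus strand), Mcm5 (chr8:75109259-75109558, plus strand), Mcm6 (chr1:128359656-128359955, minus strand) and Mcm7 (chr5:138171834-138172133, minus strand) encode helicase subunits. Rrm2 (chr12:24708004-24708303, plus strand) encodes the small subunit of ribonucleotide reductase and had the largest fall, and Rpa1 (chr11:75348334-75348633, minus strand) encodes the large subunit of the single-strand binding protein RPA and rose.
Mcm3: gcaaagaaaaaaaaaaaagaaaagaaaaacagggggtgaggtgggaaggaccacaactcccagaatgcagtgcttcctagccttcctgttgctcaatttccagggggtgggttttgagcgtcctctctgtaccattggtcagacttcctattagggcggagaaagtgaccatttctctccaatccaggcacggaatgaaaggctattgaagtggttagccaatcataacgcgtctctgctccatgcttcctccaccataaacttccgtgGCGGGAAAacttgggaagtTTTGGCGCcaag
Mcm5: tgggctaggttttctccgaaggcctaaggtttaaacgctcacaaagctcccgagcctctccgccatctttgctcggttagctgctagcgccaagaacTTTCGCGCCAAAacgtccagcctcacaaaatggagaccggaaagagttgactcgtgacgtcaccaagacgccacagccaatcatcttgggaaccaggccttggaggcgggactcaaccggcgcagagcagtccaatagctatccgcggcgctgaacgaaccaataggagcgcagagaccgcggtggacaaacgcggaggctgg
Mcm6: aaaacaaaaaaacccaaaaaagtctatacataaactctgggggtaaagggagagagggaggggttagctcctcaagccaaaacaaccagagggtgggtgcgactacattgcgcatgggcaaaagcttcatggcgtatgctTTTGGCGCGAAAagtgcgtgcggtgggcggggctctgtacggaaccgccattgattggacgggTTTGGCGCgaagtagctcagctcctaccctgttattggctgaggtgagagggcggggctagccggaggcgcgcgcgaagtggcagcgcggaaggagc
Mcm7: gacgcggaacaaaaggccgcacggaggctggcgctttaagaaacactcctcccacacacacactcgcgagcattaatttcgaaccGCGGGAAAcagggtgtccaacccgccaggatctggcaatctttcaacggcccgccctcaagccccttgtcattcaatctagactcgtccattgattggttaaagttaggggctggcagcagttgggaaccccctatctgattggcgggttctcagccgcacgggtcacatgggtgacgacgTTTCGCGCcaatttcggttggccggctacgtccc
Rrm2: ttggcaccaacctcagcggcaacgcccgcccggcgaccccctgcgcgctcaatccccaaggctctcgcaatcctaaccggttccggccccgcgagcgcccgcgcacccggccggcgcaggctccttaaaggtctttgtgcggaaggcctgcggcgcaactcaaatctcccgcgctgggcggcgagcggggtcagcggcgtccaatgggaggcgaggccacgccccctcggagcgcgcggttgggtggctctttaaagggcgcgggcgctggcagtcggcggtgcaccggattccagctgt
Rpa1: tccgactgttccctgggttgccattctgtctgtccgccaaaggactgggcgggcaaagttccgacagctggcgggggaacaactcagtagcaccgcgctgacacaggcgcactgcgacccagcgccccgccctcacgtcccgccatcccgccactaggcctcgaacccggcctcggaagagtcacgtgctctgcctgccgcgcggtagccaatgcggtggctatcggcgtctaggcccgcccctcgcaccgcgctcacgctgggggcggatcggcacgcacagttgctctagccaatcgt

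At least 1 E2F word was present in 13 of the 46 promoter windows of the listed genes, or 28.3%, against 742 of all 32817 windows of the same length, or 2.26%. The 13 windows belonged to 13 of the 39 genes. Of the 5 MCM helicase genes with a window, 4 held the word, with 2 matches each in Mcm3, Mcm5 and Mcm7 and 3 in Mcm6. The forward and reverse matches at 1 place in Mcm5 and 1 in Mcm6 share 4 bases. None of the 4 persisting genes with a window (Rfc1, Rpa1, Fen1 and Cad, described further on) held it, and neither did Rrm2, Tk1 or Dbf4, which fell steeply. The CCAAT word, searched on both strands, was in 23 of the 46 windows, or 50%, against 37.4% of all windows.

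The replication genes fell after birth in both genotypes, and most of the fall had taken place by P7. At P7 41 of the 47 genes were lower than at P0 in Plk3-KO and 40 were lower in WT, and none was higher in either genotype. Among all 25085 probe sets tested, 9.66% were lower and 10.1% higher at P7 in Plk3-KO, and 8.85% were lower and 10.3% higher in WT. The median P7 minus P0 difference of the 47 genes was -2.13 in Plk3-KO and -2.0 in WT, against -0.10 for all probe sets in either genotype. Averaged over the genotypes, the median of the 31 genes with a mean above 7 in all 6 groups was 3.14-fold lower at P7 and 3.40-fold lower in the adult than at P0.

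In the adult 42 of the 47 genes were lower than at P0 in Plk3-KO and 43 were lower in WT, with 1 gene higher in each. The background in this wider comparison was 24.2% lower and 19.4% higher in Plk3-KO and 25.9% lower and 20.7% higher in WT. The same 42 genes were lower in both genotypes, and 40 genes were lower at P7 in both. Every P0 array stood above every P7 array for 43 genes and above every adult array for 42, against 13.9% and 20.9% of all 25085 probe sets. All 47 genes passed the filter on low values through their P0 level, so these counts were repeated for the 31 genes that stayed above 7 in every group. Of these 31, 26 were lower at P7 and 27 in the adult in both genotypes. No share over all probe sets above 7 in every group is given, so the counts among the 31 genes are a description only.

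By the mean of both genotypes, the 27 genes that were lower in the adult and stayed above 7 in every group had a median of 88.3% of their log2 fall behind them at P7. As a description by role, the median share was 67.7% over 5 MCM helicase genes, against 96.4% over 6 polymerase genes and 100% over 7 genes of the clamp and strand maturation, and the other roles had 3 or fewer such genes. The limit of 7 leaves out Rrm2 and Tk1, which fell furthest after P7. Over all 42 genes lower in the adult in both genotypes the median share was 81.4%, where adult means under 7 make the size unsure. Without the 4 arrays that stand apart by their medians or control ratios (array 2 at P7 and array 3 in the adult of Plk3-KO, and array 3 at both of these ages of WT) the tests gave 42 lower genes at P7 in Plk3-KO and 44 in WT, and 44 lower genes in the adult in Plk3-KO and 44 in WT.

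**Figure D1:**
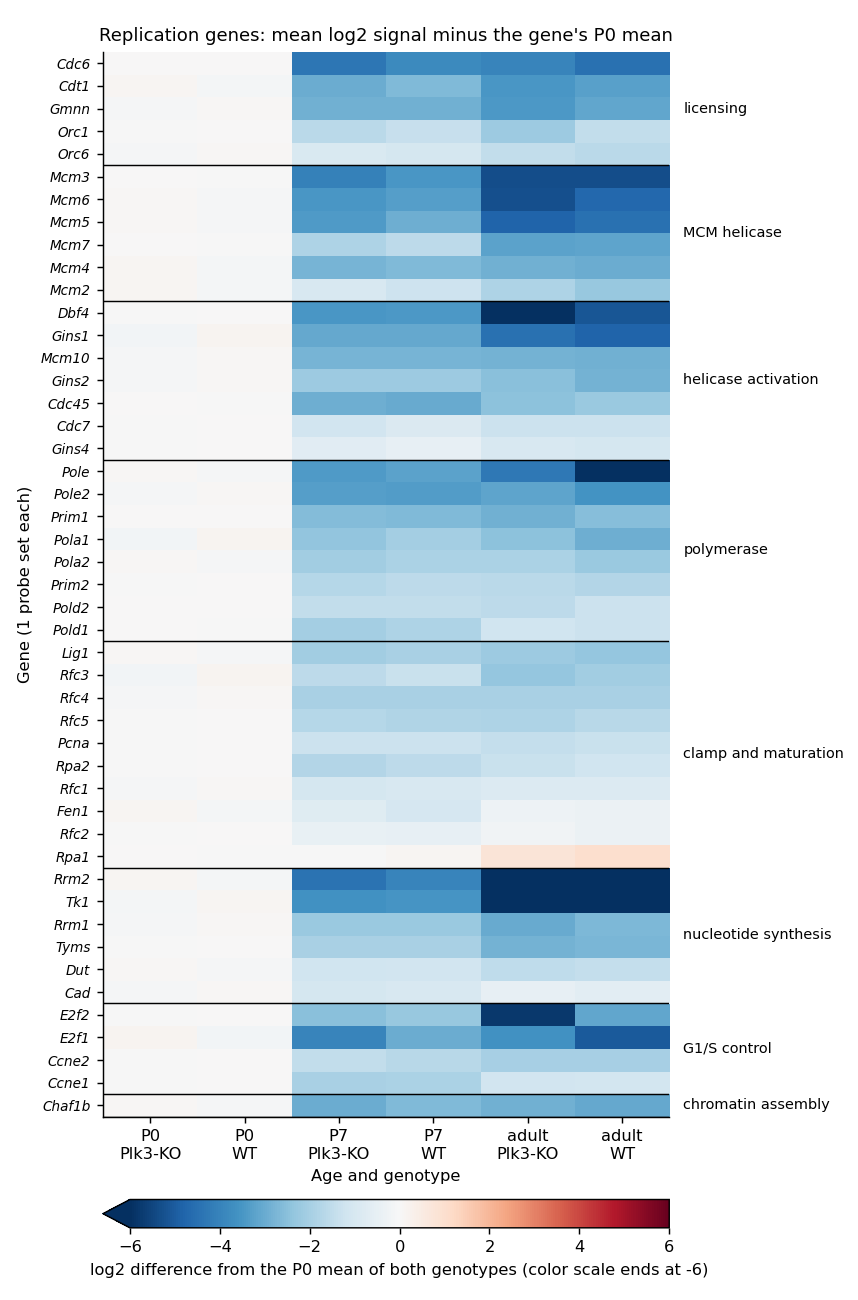
Mean log2 signal of the 47 replication genes (rows, ordered by role and by the size of the change to the adult) in Plk3-KO and WT retinas at P0, P7 and adult age, as the difference from each gene's P0 mean over both genotypes. Blue is lower and red is higher, the color scale ends at -6, and the adult values of Rrm2 and Tk1 in both genotypes, Dbf4 in Plk3-KO and Pole in WT lie below that end. Rpa1 is the only row that ends above its P0 level in both genotypes.

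The licensing genes fell with the exception of Orc1. Cdc6, the ATPase that brings the helicase to origins, read 9.4, 9.3 and 9.4 at P0, 5.7, 4.7 and 4.7 at P7 and 5.3, 4.9 and 6.0 in the adult in Plk3-KO retinas. Cdc6 in WT retinas read 9.3, 9.3 and 9.5 at P0, 4.9, 5.4 and 6.3 at P7 and 4.5, 4.9 and 5.3 in the adult. The P7 and adult values overlapped each other and lay far below every P0 value. Cdc6 differed by -4.33 ± 0.43 in Plk3-KO and -3.83 ± 0.43 in WT (P7 minus P0, adjusted p = 2.8e-06 in Plk3-KO and 1.2e-05 in WT) and showed no further call to the adult. Against the minimum of 7, under which it fell, the adult level was at least 5.16-fold lower in Plk3-KO and 5.16-fold lower in WT than at P0.

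Orc6, a subunit of the origin recognition complex, fell least among the licensing genes with a call. Orc6 in Plk3-KO retinas read 10.6, 10.3 and 10.7 at P0, 9.7, 9.9 and 9.5 at P7 and 9.4, 8.6 and 9.3 in the adult. Orc6 in WT retinas read 10.9, 10.7 and 10.4 at P0, 9.8, 9.3 and 9.6 at P7 and 9.2, 9.0 and 8.8 in the adult. Each P0 value exceeded each later value, and the adult values stayed between 8.6 and 9.4. Orc6 differed by -1.43 ± 0.23 in Plk3-KO and -1.67 ± 0.23 in WT (adult minus P0, adjusted p = 9.4e-05 in Plk3-KO and 2.3e-05 in WT).

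Cdt1, the loading factor, averaged 11.93 at P0, 9.12 at P7 and 8.55 in the adult over both genotypes, and its inhibitor geminin (Gmnn) averaged 11.73 at P0, 8.83 at P7 and 8.45 in the adult. Both were lower at P7 and in the adult in both genotypes. Cdt1 differed by -3.63 ± 0.36 in Plk3-KO and -3.13 ± 0.36 in WT (adult minus P0, adjusted p = 7.3e-07 in Plk3-KO and 3.9e-06 in WT). Orc1, the largest subunit of the origin complex, averaged 7.13 at P0, 5.63 at P7 and 5.28 in the adult and passed no test, with 18 values spread from 3.3 to 7.4. Orc1 differed by -2.17 ± 0.97 in Plk3-KO and -1.53 ± 0.97 in WT (adult minus P0, adjusted p = 0.081 in Plk3-KO and 0.20 in WT).

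All 6 MCM helicase genes, whose products form the ring that unwinds DNA, were lower in the adult in both genotypes, and 4 of them fell again after P7. Mcm3 read 11.8, 11.4 and 11.4 at P0, 7.0, 8.3 and 7.0 at P7 and 6.3, 6.5 and 5.8 in the adult in Plk3-KO retinas. Mcm3 in WT retinas read 11.4, 11.4 and 11.6 at P0, 7.9, 7.6 and 8.5 at P7 and 6.4, 6.4 and 5.7 in the adult. The 3 ages did not overlap in either genotype. Mcm3 differed by -5.33 ± 0.34 in Plk3-KO and -5.30 ± 0.34 in WT (adult minus P0, adjusted p = 7.9e-09 in Plk3-KO and 8.5e-09 in WT), and by -1.23 ± 0.34 in Plk3-KO and -1.83 ± 0.34 in WT (adult minus P7, adjusted p = 0.021 in Plk3-KO and 0.0019 in WT). Its adult means lay under 7, and against that minimum the adult level was at least 23.2-fold lower in Plk3-KO and 22.1-fold lower in WT than at P0.

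Mcm6 gave a like course with every group mean above 7. Mcm6 in Plk3-KO retinas read 12.6, 12.5 and 12.5 at P0, 9.2, 9.4 and 8.4 at P7 and 7.3, 7.8 and 6.5 in the adult. Mcm6 in WT retinas read 12.6, 12.6 and 12.1 at P0, 9.4, 8.5 and 9.7 at P7 and 7.5, 7.9 and 7.9 in the adult. No P7 value reached a P0 value, and no adult value reached a P7 value. Mcm6 differed by -3.53 ± 0.34 in Plk3-KO and -3.23 ± 0.34 in WT from P0 at P7 and by -1.80 ± 0.34 in Plk3-KO and -1.43 ± 0.34 in WT from P7 in the adult, with adjusted p = 2.4e-06 in Plk3-KO and 7.1e-06 in WT for the first step and adjusted p = 0.0020 in Plk3-KO and 0.0095 in WT for the second.

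Mcm5 averaged 12.18 at P0, 9.03 at P7 and 7.53 in the adult, and Mcm7 averaged 13.07 at P0, 11.35 at P7 and 9.88 in the adult. Mcm7 differed by -1.90 ± 0.29 in Plk3-KO and -1.53 ± 0.29 in WT at the step to P7 (adjusted p = 0.00019 in Plk3-KO and 0.0012 in WT) and by -1.33 ± 0.29 in Plk3-KO and -1.60 ± 0.29 in WT at the step to the adult (adjusted p = 0.0047 in Plk3-KO and 0.0014 in WT). Mcm4 averaged 11.87 at P0, 9.15 at P7 and 8.95 in the adult and did not pass the test after P7. Mcm2 was the one that passed the test in the adult and not at P7, with -1.97 ± 0.48 in Plk3-KO and -2.13 ± 0.48 in WT (adult minus P0, adjusted p = 0.0037 in Plk3-KO and 0.0021 in WT). Mcm2 read 10.4, 10.4 and 10.7 at P0, 9.1, 9.6 and 9.5 at P7 and 8.2, 9.6 and 7.8 in the adult in Plk3-KO. Mcm2 in WT retinas read 10.3, 9.9 and 10.5 at P0, 9.4, 8.4 and 9.6 at P7 and 8.0, 7.1 and 9.2 in the adult. The spread within a group reached 2.1 units in the adult WT arrays. A second Mcm2 probe set, 1448777_at, had means at P0, P7 and adult of 11.10, 7.63 and 7.80 in Plk3-KO, against 10.97, 7.90 and 7.83 in WT and was lower at P7, with differences of -3.47 in Plk3-KO and -3.07 in WT (adjusted p = 1.5e-07 in Plk3-KO and 4.4e-07 in WT).

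All 7 genes of helicase activation were lower in the adult in both genotypes. Dbf4, the regulatory subunit of the kinase that fires origins, read 11.6, 11.9 and 11.8 at P0, 8.3, 8.3 and 8.3 at P7 and 6.2, 6.6 and 4.2 in the adult in Plk3-KO retinas. Dbf4 in WT retinas read 11.9, 11.8 and 11.8 at P0, 8.3, 8.3 and 8.4 at P7 and 6.7, 6.9 and 6.4 in the adult. The P7 arrays agreed within 0.1 units, and the 3 ages did not overlap. Dbf4 differed by -6.10 ± 0.41 in Plk3-KO and -5.17 ± 0.41 in WT (adult minus P0, adjusted p = 1.1e-08 in Plk3-KO and 7.1e-08 in WT), and the step after P7 was -2.63 ± 0.41 in Plk3-KO and -1.67 ± 0.41 in WT (adjusted p = 0.00041 in Plk3-KO and 0.011 in WT). Its adult means lay under 7, and against that minimum the adult level was at least 27.2-fold lower in Plk3-KO and 28.5-fold lower in WT than at P0.

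Gins4, a subunit of the GINS complex, fell least of this role and lies at the edge of the persistence limit. Gins4 in Plk3-KO retinas read 10.2, 10.3 and 10.5 at P0, 9.4, 9.9 and 9.7 at P7 and 9.7, 9.2 and 9.2 in the adult. Gins4 in WT retinas read 10.6, 10.2 and 10.3 at P0, 9.8, 9.8 and 10 at P7 and 9.7, 9.4 and 8.8 in the adult. Every P0 value lay above every adult value. Gins4 differed by -0.97 ± 0.22 in Plk3-KO and -1.07 ± 0.22 in WT (adult minus P0, adjusted p = 0.0025 in Plk3-KO and 0.0012 in WT). Gins4 was lower at P7 in Plk3-KO (adjusted p = 0.047 in Plk3-KO and 0.14 in WT for P7 minus P0). Its partners Gins1 and Gins2 were lower in the adult in both genotypes, where Gins1 averaged 11.12 at P0, 8.05 at P7 and 6.48 in the adult and Gins2 averaged 9.78 at P0, 7.60 at P7 and 7.10 in the adult. The subunits were read by different probe sets, so only their differences are set side by side.

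Cdc7, the kinase that Dbf4 activates, averaged 10.40 at P0, 9.38 at P7 and 9.12 in the adult, with a difference of -1.27 ± 0.22 in Plk3-KO and -1.30 ± 0.22 in WT (adult minus P0, adjusted p = 0.00026 in Plk3-KO and 0.00021 in WT). A second Cdc7 probe set, 1426021_a_at, with P0 means of 7.37 in Plk3-KO and 7.47 in WT, passed no test with age. Its adult minus P0 difference was -0.37 in Plk3-KO and -0.80 in WT (adjusted p = 0.54 in Plk3-KO and 0.16 in WT). Cdc45, a part of the active helicase, averaged 8.88 at P0, 5.92 at P7 and 6.52 in the adult, and Mcm10, a helicase activator, averaged 9.20 at P0, 6.40 at P7 and 6.35 in the adult. Cdc45 and Mcm10 were under 7 in both genotypes at P7 and in the adult, where the size of a fall is not firm.

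The 8 polymerase genes were lower at P7 and in the adult in both genotypes. Pole, the catalytic subunit of the leading strand polymerase, read 10.1, 10.2 and 10.5 at P0, 6.9, 6.6 and 6.8 at P7 and 5.4, 5.1 and 7.2 in the adult in Plk3-KO retinas. Pole in WT retinas read 10, 9.9 and 10.4 at P0, 7.4, 7.0 and 6.5 at P7 and 2.1, 3.7 and 6.0 in the adult. The adult values were spread from 2.1 to 7.2 and lay under all P0 values, and 1 adult Plk3-KO value stood above the P7 values of its genotype. Against the minimum of 7 the adult level was at least 9.62-fold lower in Plk3-KO and 8.57-fold lower in WT than at P0 (adult minus P0, adjusted p = 0.00012 in Plk3-KO and 4.1e-06 in WT).

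Pold1, the catalytic subunit of polymerase delta, fell least of this role. Pold1 in Plk3-KO retinas read 9.5, 9.5 and 9.6 at P0, 7.6, 7.4 and 7.4 at P7 and 8.4, 8.7 and 7.8 in the adult. Pold1 in WT retinas read 9.3, 9.6 and 9.5 at P0, 7.5, 7.8 and 7.7 at P7 and 8.6, 8.0 and 8.1 in the adult. The P7 arrays were the lowest in both genotypes, and in each genotype every adult array stood above every P7 array. Pold1 differed by -2.07 ± 0.24 in Plk3-KO and -1.80 ± 0.24 in WT (P7 minus P0, adjusted p = 1.3e-05 in Plk3-KO and 5.5e-05 in WT) and by 0.83 ± 0.24 in Plk3-KO and 0.57 ± 0.24 in WT (adult minus P7, adjusted p = 0.023 in Plk3-KO and 0.11 in WT), so that the second step passed the test in Plk3-KO. On a second Pold1 probe set, 1456055_x_at, adult minus P7 was 0.70 in both genotypes and passed in neither (adjusted p = 0.11 in Plk3-KO and 0.10 in WT).

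Prim1 and Prim2, the subunits of primase, averaged 12.17 at P0, 9.55 at P7 and 9.43 in the adult for Prim1 and 10.28 at P0, 8.65 at P7 and 8.60 in the adult for Prim2. Pola1, the catalytic subunit of polymerase alpha, averaged 10.48 at P0, 8.30 at P7 and 7.80 in the adult, and its partner Pola2 averaged 9.32 at P0, 7.33 at P7 and 7.23 in the adult. Among these 4 genes no step after P7 passed the test. Pold2, which holds Pold1 in the complex, averaged 10.47 at P0, 9.0 at P7 and 9.03 in the adult. Pole2, the partner of Pole, averaged 9.75 at P0, 6.42 at P7 and 6.38 in the adult, under the minimum at P7 and in the adult.

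**Figure D2:**
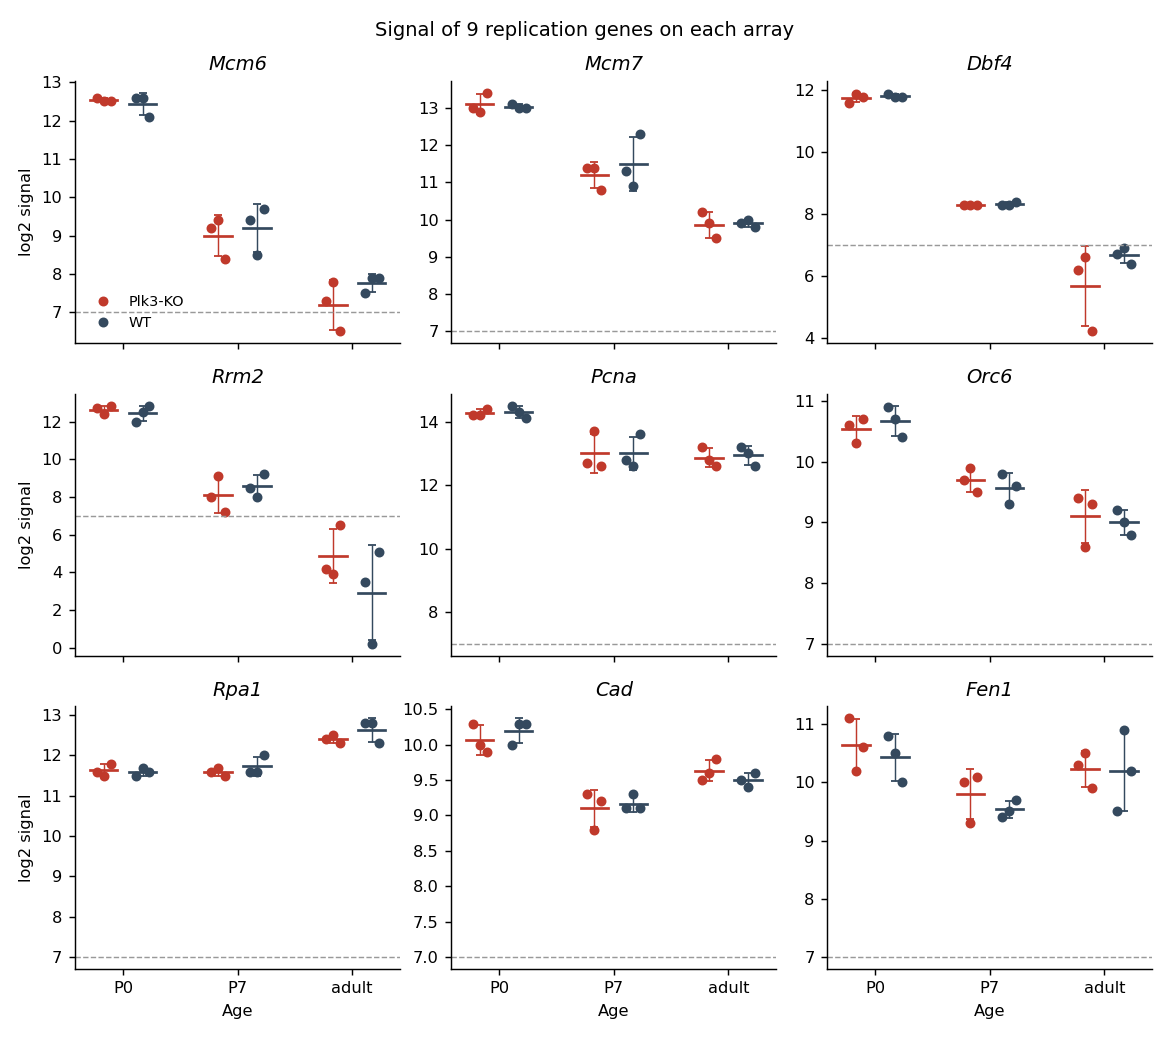
Log2 signal of 9 replication genes on each array (points) at P0, P7 and adult age, Plk3-KO left of WT, with group means (bars) and SD (whiskers, n = 3); the dashed line is the minimum of 7. Mcm6, Mcm7, Dbf4 and Rrm2 step down at P7 and again in the adult, Pcna and Orc6 fall but stay above 7, and Rpa1 is highest in the adult.

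Among the 10 genes of the clamp, its loader, RPA and strand maturation, 7 were lower in the adult in both genotypes, and 4 of the 5 persisting genes belong here. Lig1, the ligase that seals Okazaki fragments, fell most. Lig1 in Plk3-KO retinas read 11.4, 10.9 and 11.4 at P0, 9.2, 8.9 and 9.1 at P7 and 9.2, 8.9 and 8.8 in the adult. Lig1 in WT retinas read 10.7, 11.3 and 11.3 at P0, 9.1, 9.1 and 9.4 at P7 and 9.1, 8.9 and 8.6 in the adult. P7 and adult values overlapped each other under all P0 values. Lig1 differed by -2.27 ± 0.21 in Plk3-KO and -2.23 ± 0.21 in WT (adult minus P0, adjusted p = 4.1e-07 in Plk3-KO and 5.4e-07 in WT).

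Pcna, the sliding clamp, stayed at a high signal while it fell. Pcna in Plk3-KO retinas read 14.2, 14.2 and 14.4 at P0, 12.7, 13.7 and 12.6 at P7 and 13.2, 12.8 and 12.6 in the adult. Pcna in WT retinas read 14.5, 14.3 and 14.1 at P0, 12.8, 12.6 and 13.6 at P7 and 13.2, 13.0 and 12.6 in the adult. The highest P7 values came from Plk3-KO array 2 and WT array 3, which also had the highest actin ratio at that age. Pcna differed by -1.27 ± 0.30 in Plk3-KO and -1.30 ± 0.30 in WT (P7 minus P0, adjusted p = 0.0067 in Plk3-KO and 0.0060 in WT) and did not change by the test after P7.

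The clamp loader subunits, which open Pcna and place it on DNA, did not move alike. Rfc3 averaged 10.08 at P0, 8.62 at P7 and 7.88 in the adult, Rfc4 averaged 11.20 at P0, 9.25 at P7 and 9.25 in the adult and Rfc5 averaged 10.50 at P0, 8.73 at P7 and 8.73 in the adult, and all were lower at both later ages in both genotypes. Rpa2, the middle subunit of RPA, averaged 10.92 at P0, 9.27 at P7 and 9.67 in the adult, with a difference of -1.30 ± 0.24 in Plk3-KO and -1.20 ± 0.24 in WT (adult minus P0, adjusted p = 0.00044 in Plk3-KO and 0.00088 in WT). A second Rpa2 probe set, 1454011_a_at, differed by -2.50 in Plk3-KO and -2.30 in WT.

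In the nucleotide supply, 5 of 6 genes were lower in the adult in Plk3-KO and 6 of 6 in WT. Rrm2, the S phase subunit of ribonucleotide reductase, read 12.7, 12.4 and 12.8 at P0, 8.0, 9.1 and 7.2 at P7 and 4.2, 3.9 and 6.5 in the adult in Plk3-KO retinas. Rrm2 in WT retinas read 12, 12.5 and 12.8 at P0, 8.5, 8.0 and 9.2 at P7 and 3.5, 0.2 and 5.1 in the adult. The ages did not overlap, and the adult arrays were far apart from one another under the minimum. Rrm2 differed by -4.53 ± 0.91 in Plk3-KO and -3.87 ± 0.91 in WT (P7 minus P0, adjusted p = 0.0020 in Plk3-KO and 0.0068 in WT) and by -3.23 ± 0.91 in Plk3-KO and -5.63 ± 0.91 in WT (adult minus P7, adjusted p = 0.023 in Plk3-KO and 0.00064 in WT). Against the minimum of 7 its adult level was at least 49.6-fold lower in Plk3-KO and 43.2-fold lower in WT than at P0, the largest bounds of the 47 genes.

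Tk1, the thymidine kinase of dividing cells, averaged 9.98 at P0, 6.40 at P7 and 3.10 in the adult and was lower at each step in both genotypes, with P7 already under 7. Rrm1, the large subunit of the reductase, averaged 11.95 at P0, 9.70 at P7 and 9.08 in the adult, and Dut, which removes dUTP, averaged 12.07 at P0, 10.88 at P7 and 10.58 in the adult. On these probe sets both were lower at P7 and in the adult in both genotypes. A second Dut probe set, 1419269_at, passed no test at either step. Its adult minus P0 difference was -0.07 in Plk3-KO and 0.20 in WT (adjusted p = 0.87 in Plk3-KO and 0.60 in WT). Tyms, the thymidylate synthase, averaged 7.07 at P0, 5.12 at P7 and 4.28 in the adult, stood at the minimum at P0 and passed the test in the adult, not at P7 (adult minus P0, adjusted p = 0.026 in Plk3-KO and 0.027 in WT). A probe set annotated to both Tyms and a Tyms pseudogene was not used.

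Among the G1/S regulators, all 4 genes were lower at P7 and in the adult in both genotypes. E2f2, an activator of S phase genes, read 9.2, 8.8 and 8.8 at P0, 6.3, 6.6 and 6.5 at P7 and 1.9, 4.9 and 2.7 in the adult in Plk3-KO retinas. E2f2 in WT retinas read 8.8, 9.0 and 9.2 at P0, 7.0, 6.4 and 6.7 at P7 and 6.5, 5.6 and 5.4 in the adult. Every value after P0 was at or under 7, and the adult Plk3-KO arrays lay under all adult WT arrays. Against the minimum, the adult level was at least 3.82-fold lower in Plk3-KO and 4-fold lower in WT than at P0. E2f1, a related activator, averaged 9.55 at P0, 6.08 at P7 and 5.20 in the adult.

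Ccne1, cyclin E1, which drives entry into S phase, fell least of these. Ccne1 in Plk3-KO retinas read 9.2, 8.9 and 9.4 at P0, 7.2, 7.3 and 7.3 at P7 and 7.5, 7.9 and 8.7 in the adult. Ccne1 in WT retinas read 9.0, 9.1 and 9.6 at P0, 7.1, 7.4 and 7.4 at P7 and 8.7, 8.0 and 7.6 in the adult. The P7 arrays were the lowest, and each adult array lay above each P7 array. Ccne1 differed by -1.13 ± 0.32 in Plk3-KO and -1.13 ± 0.32 in WT (adult minus P0, adjusted p = 0.0090 in Plk3-KO and 0.0089 in WT), and adult minus P7, 0.77 ± 0.32 in Plk3-KO and 0.80 ± 0.32 in WT, did not pass the test. Without adult Plk3-KO array 1 the Plk3-KO difference from P0 was -0.87 and missed the threshold (adjusted p = 0.052). This is an _x_at probe set, whose probes can also match other transcripts. A second Ccne1 probe set, 1416492_at, had means at P0, P7 and adult of 8.27, 6.83 and 6.37 in Plk3-KO, against 8.43, 6.6 and 7.77 in WT, with P7 minus P0 of -1.43 in Plk3-KO and -1.83 in WT (adjusted p = 0.077 in Plk3-KO and 0.026 in WT) and adult minus P0 of -1.90 in Plk3-KO and -0.67 in WT (adjusted p = 0.0099 in Plk3-KO and 0.32 in WT). On it the adult Plk3-KO mean lay below the P7 mean. Ccne2, cyclin E2, averaged 9.68 at P0, 8.12 at P7 and 7.70 in the adult.

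Chaf1b, a subunit of the factor that deposits histones behind the fork, was the chromatin assembly gene measured. Chaf1b in Plk3-KO retinas read 9.1, 8.7 and 9.2 at P0, 6.0, 6.2 and 5.7 at P7 and 5.3, 5.9 and 6.9 in the adult. Chaf1b in WT retinas read 8.8, 8.9 and 8.9 at P0, 6.5, 6.1 and 6.2 at P7 and 6.1, 6.0 and 5.5 in the adult. The P7 and adult arrays were all under 7 and overlapped. Against that minimum the adult level was at least 4-fold lower in Plk3-KO and 3.65-fold lower in WT than at P0.

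A gene was called persisting where both adult means exceeded 7 and adult minus P0 was above -1 in both genotypes, and Rfc1, Rfc2, Rpa1, Fen1 and Cad met this. The limit chose these genes, so their small differences are a description. Just inside it was Rfc1, at -0.77 ± 0.20 in Plk3-KO and -0.87 ± 0.20 in WT. Just outside were Gins4, at -0.97 ± 0.22 in Plk3-KO and -1.07 ± 0.22 in WT, and Ccne1, at -1.13 ± 0.32 in Plk3-KO and -1.13 ± 0.32 in WT.

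Rpa1 rose, the 1 gene of the 47 that was higher in the adult than at P0 in both genotypes. Rpa1 in Plk3-KO retinas read 11.6, 11.5 and 11.8 at P0, 11.6, 11.7 and 11.5 at P7 and 12.4, 12.5 and 12.3 in the adult. Rpa1 in WT retinas read 11.5, 11.7 and 11.6 at P0, 11.6, 11.6 and 12 at P7 and 12.8, 12.8 and 12.3 in the adult. P0 and P7 arrays overlapped, and every adult array stood above every array of the earlier ages. Rpa1 differed by 0.80 ± 0.17 in Plk3-KO and 0.90 ± 0.17 in WT (adult minus P7, adjusted p = 0.0041 in Plk3-KO and 0.0019 in WT) and by 0.77 ± 0.17 in Plk3-KO and 1.03 ± 0.17 in WT (adult minus P0, adjusted p = 0.0017 in Plk3-KO and 0.00014 in WT). A second Rpa1 probe set, 1423293_at, had means at P0, P7 and adult of 10.77, 10.73 and 11.47 in Plk3-KO, against 10.93, 10.77 and 11.80 in WT, also higher in the adult than at P0 (adjusted p = 0.0066 in Plk3-KO and 0.0015 in WT). RPA coats single-stranded DNA in repair as well as in replication.

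Rfc2, a clamp loader subunit, passed no test at any age. Rfc2 in Plk3-KO retinas read 10.6, 10.4 and 9.8 at P0, 10, 9.4 and 10.1 at P7 and 9.9, 9.9 and 10.4 in the adult. Rfc2 in WT retinas read 10.2, 10.3 and 10.5 at P0, 10.1, 9.9 and 9.4 at P7 and 10.1, 9.9 and 9.9 in the adult. All 3 ages overlapped. Rfc1, the large subunit of the loader, read 10.5, 10.2 and 10.1 at P0, 9.5, 9.2 and 9.1 at P7 and 9.6, 9.7 and 9.2 in the adult in Plk3-KO. Rfc1 in WT retinas read 10.6, 10.3 and 10.2 at P0, 9.2, 9.3 and 9.6 at P7 and 9.2, 9.7 and 9.6 in the adult. Every P0 array exceeded every later array, and the P7 and adult arrays overlapped. Rfc1 differed by -1.0 ± 0.20 in Plk3-KO and -1.0 ± 0.20 in WT at P7 (P7 minus P0, adjusted p = 0.0020 in Plk3-KO and 0.0022 in WT) and was also lower in the adult (adult minus P0, adjusted p = 0.0059 in Plk3-KO and 0.0025 in WT). The other Rfc1 probe sets differed from this: adult minus P0 was -0.03 in Plk3-KO and -0.30 in WT (adjusted p = 0.89 in Plk3-KO and 0.18 in WT) on 1449050_at, and -0.30 in Plk3-KO and -1.23 in WT (adjusted p = 0.63 in Plk3-KO and 0.044 in WT) on 1451920_a_at, by which Rfc1 in WT lies beyond the persistence limit.

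Fen1, the nuclease that trims Okazaki fragment flaps, depended on the probe set. Fen1 in Plk3-KO retinas read 11.1, 10.2 and 10.6 at P0, 10, 9.3 and 10.1 at P7 and 10.3, 10.5 and 9.9 in the adult on 1436454_x_at. Fen1 in WT retinas read 10.8, 10.5 and 10 at P0, 9.4, 9.5 and 9.7 at P7 and 9.5, 10.9 and 10.2 in the adult. P0 and adult arrays overlapped, and no step passed the test (adult minus P0, adjusted p = 0.34 in Plk3-KO and 0.58 in WT). The probe set 1421731_a_at had means at P0, P7 and adult of 10.50, 8.87 and 9.17 in Plk3-KO, against 10.53, 9.10 and 9.4 in WT and was lower in the adult (adjusted p = 0.00069 in Plk3-KO and 0.0025 in WT). By that probe set Fen1 would not have counted as persisting. The first is an _x_at probe set.

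Cad, the enzyme that starts pyrimidine synthesis, dipped at P7. Cad in Plk3-KO retinas read 10.3, 10 and 9.9 at P0, 9.3, 8.8 and 9.2 at P7 and 9.5, 9.6 and 9.8 in the adult. Cad in WT retinas read 10, 10.3 and 10.3 at P0, 9.1, 9.3 and 9.1 at P7 and 9.5, 9.4 and 9.6 in the adult. In each genotype the P7 arrays were the lowest and the P0 arrays the highest, with no overlap among the ages. Cad differed by -0.97 ± 0.18 in Plk3-KO and -1.03 ± 0.18 in WT (P7 minus P0, adjusted p = 0.00089 in Plk3-KO and 0.00056 in WT) and by 0.53 ± 0.18 in Plk3-KO and 0.33 ± 0.18 in WT (adult minus P7, adjusted p = 0.047 in Plk3-KO and 0.20 in WT), so the later rise passed the test in Plk3-KO. Cad differed by -0.43 ± 0.18 in Plk3-KO and -0.70 ± 0.18 in WT from P0 in the adult (adjusted p = 0.056 in Plk3-KO and 0.0043 in WT), which passed the test in WT. Without adult Plk3-KO array 3 the Plk3-KO difference was -0.52 and also passed (adjusted p = 0.037). A second Cad probe set, 1452830_s_at, had means at P0, P7 and adult of 9.47, 8.70 and 9.43 in Plk3-KO, against 9.60, 8.83 and 8.50 in WT. It had an adult minus P0 difference of -0.03 in Plk3-KO and -1.10 in WT (adjusted p = 0.91 in Plk3-KO and 0.00050 in WT) and an adult minus P7 difference of 0.73 in Plk3-KO and -0.33 in WT (adjusted p = 0.023 in Plk3-KO and 0.28 in WT), so in WT it showed no rise after P7 and Cad would not have counted as persisting.

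Some small falls lost their call with another scaling. With each array centred on its median, the median P7 minus P0 difference of all probe sets was 0.17 in both genotypes in place of -0.10, and that of adult minus P0 was 0.067 in Plk3-KO and 0.20 in WT in place of -0.23 and -0.20. Under that centring 45 of the genes were tested, and 33 were lower at P7 in Plk3-KO and 33 in WT. Adult minus P0 then missed the threshold for Pold1 at -0.97 in Plk3-KO and -0.87 in WT, for Ccne1 at -0.87 in Plk3-KO and -0.77 in WT, for Gins4 at -0.70 in both genotypes, for Rfc1 at -0.50 in both and for Cad at -0.33 in WT. With quantile normalization these calls held, other than that of Ccne1 in Plk3-KO, at -0.89 (adjusted p = 0.052). The same centring turned the small adult minus P0 differences of Rfc2 in Plk3-KO and Fen1 in WT to 0.067 and 0.13.

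After P7 the list as a whole moved little, and 14 genes passed the test in at least 1 genotype. Adult minus P7 passed the test for 9 lower and 3 higher genes in Plk3-KO, and for 10 lower and 1 higher in WT. The background was 9.2% lower and 7.96% higher in Plk3-KO, and 8.79% lower and 8.54% higher in WT. In both genotypes 8 genes were lower, namely Mcm3, Mcm5, Mcm6, Mcm7, Dbf4, Gins1, Rrm2 and Tk1, and Rpa1 was higher. Mcm5 and Rrm2 were read from _x_at probe sets, and were also lower in both genotypes on 1415945_at and 1448226_at. On 1416120_at, with P7 and adult means under 7, Rrm2 passed no test after P7 (-0.37 in Plk3-KO and -1.63 in WT, adjusted p = 0.82 and 0.23). Mcm3 was lower in both on 1426652_at, but passed in neither on 1426653_at and 1449705_x_at. Pole, E2f1 and E2f2 were lower in 1 genotype, Pold1 and Cad higher in Plk3-KO, and the difference between genotypes in adult minus P7 passed the test for none of them. The median difference was -0.13 in Plk3-KO and -0.37 in WT, against -0.10 for all probe sets in either genotype. Without P7 Plk3-KO array 2 the Plk3-KO count was 7 genes, and median centring gave 5 lower and none higher in Plk3-KO and 7 lower and none higher in WT.

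**Figure D3:**
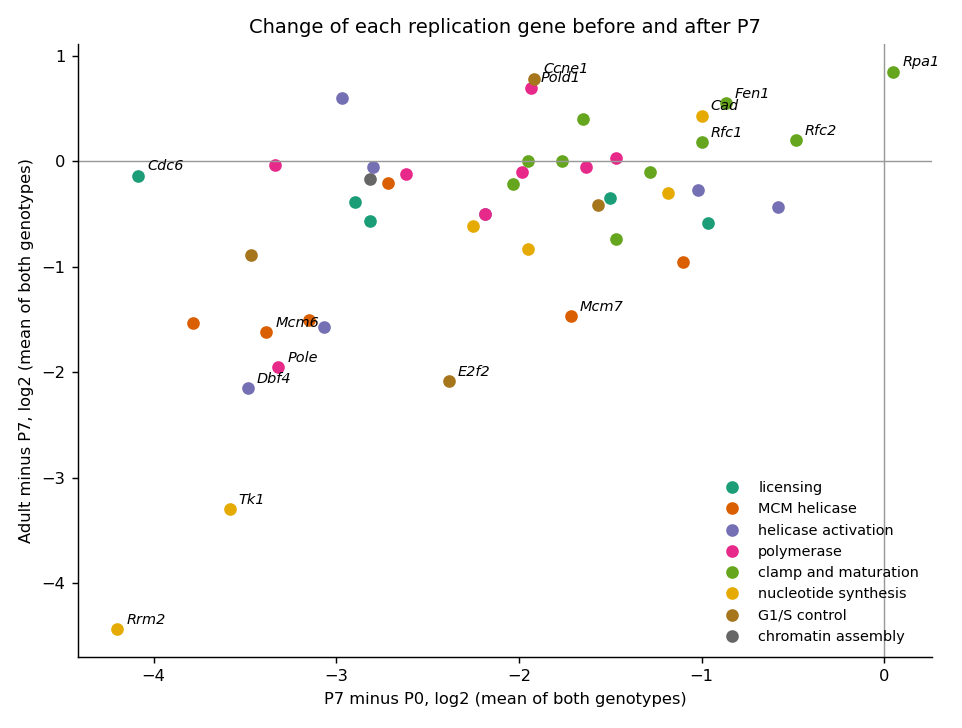
Change of each of the 47 replication genes from P0 to P7 (horizontal) and from P7 to the adult (vertical), in log2 units averaged over Plk3-KO and WT and colored by role. Most points lie left of 0 and near the horizontal line, Rrm2 and Tk1 fall furthest after P7, and Rpa1 lies alone at the top right.

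The fall ran alike in Plk3-KO and WT retinas. Across the 47 genes the P7 minus P0 differences of the genotypes correlated with r = 0.963 and the adult minus P0 differences with r = 0.941, a description over genes, which are not independent replicates. The gap between genotypes in P7 minus P0 had a median size of 0.17 and was largest for E2f1, at -4.13 in Plk3-KO and -2.80 in WT, where both P7 means lay under 7 and the size is not firm. In the test of that gap, 0 of 47 genes passed for P7 minus P0, for adult minus P7 and for adult minus P0, against 0% of all 25085 probe sets in each. At an unadjusted p under 0.05 0 genes passed for P7 minus P0. For adult minus P7 3 passed (Pole, E2f1 and E2f2), and for adult minus P0 1 passed (E2f2). Of all probe sets, 128 (0.51%), 351 (1.40%) and 472 (1.88%) passed in these comparisons. Such shares lie below what a threshold of 0.05 passes when nothing differs, so a missing call does not show equal falls. The adult means of Pole, E2f1 and E2f2 lay under 7. With array weights in limma, Rrm2 (3.54, adjusted p = 0.049) and E2f1 (2.64, adjusted p = 0.038) passed for adult minus P7, with adult means that also lay under 7.

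At each age the genotypes were compared directly, and none of the tested genes passed in limma, other than Mcm2 when array weights were used (adult, 1.94, adjusted p = 0.0057, against 0.43 without weights). Adult array 2 had a weight of 3.18 in Plk3-KO and 2.65 in WT, against at most 0.50 and 0.66 on the other adult arrays. The weighted Mcm2 difference thus rested mainly on 1 array per genotype, which read 9.6 in Plk3-KO and 7.1 in WT. Without weights, the second Mcm2 probe set, 1448777_at, differed by -0.03 in the adult. The tested genes numbered 47 at P0, 36 at P7 and 32 in the adult, and 0% of all probe sets tested passed at each age. At an unadjusted p under 0.05 none of the genes passed either. Of all probe sets tested, 85 of 22611 passed at P0, 123 of 21390 at P7 and 1008 of 21005 in the adult. Each share lies below what a threshold of 0.05 passes when nothing differs, so a missing call does not show equal levels in the genotypes. The methods' t-test, at the study's own unadjusted threshold, marked 0 of the genes at P0, 0 at P7 and 1 in the adult (Prim1). Of all probe sets it marked 503 of 22603 at P0, 250 of 21387 at P7 and 660 of 21003 in the adult. In the adult 1 of 32 genes is thus near the background. After Benjamini-Hochberg adjustment it marked 0 of the genes at every age.

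At P0 the smallest p values belonged to Rfc3, Pola1 and Mcm4. Rfc3 read 9.7, 9.9 and 10.2 in Plk3-KO, against 10.3, 10.2 and 10.2 in WT (-0.30 ± 0.27, unadjusted p = 0.28, adjusted p = 1.0). Pola1 read 11, 10.5 and 9.4 in Plk3-KO, against 11.2, 10.8 and 10 in WT (-0.37 ± 0.42, unadjusted p = 0.39, adjusted p = 1.0). Mcm4 read 12, 11.8 and 12.1 in Plk3-KO, against 11.7, 11.6 and 12 in WT (0.20 ± 0.23, unadjusted p = 0.40, adjusted p = 1.0). The arrays of the genotypes overlapped or met in each of these genes, and without P0 Plk3-KO array 3 the Pola1 difference turned to 0.083.

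At P7 they belonged to Mcm3, Cdc7 and Mcm5. Mcm3 at P7 read 7.0, 8.3 and 7.0 in Plk3-KO, against 7.9, 7.6 and 8.5 in WT (-0.57 ± 0.34, unadjusted p = 0.12, adjusted p = 1.0). Cdc7 at P7 read 9.4, 8.8 and 9.5 in Plk3-KO, against 9.4, 9.6 and 9.6 in WT (-0.30 ± 0.22, unadjusted p = 0.20, adjusted p = 1.0). Mcm5 at P7 read 8.7, 9.6 and 8.1 in Plk3-KO, against 8.9, 8.9 and 10 in WT (-0.47 ± 0.43, unadjusted p = 0.29, adjusted p = 1.0). In each gene the Plk3-KO mean was the lower and the ranges overlapped, and the highest Mcm3 and Mcm5 values of either genotype came from the 2 arrays with the high actin ratio.

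In the adult they belonged to Prim1, Mcm6 and Rpa1. Prim1 in the adult read 9.4, 9.3 and 9.1 in Plk3-KO, against 9.6, 9.7 and 9.5 in WT (-0.33 ± 0.20, unadjusted p = 0.11, adjusted p = 0.98). Mcm6 in the adult read 7.3, 7.8 and 6.5 in Plk3-KO, against 7.5, 7.9 and 7.9 in WT (-0.57 ± 0.34, unadjusted p = 0.12, adjusted p = 0.98). Rpa1 in the adult read 12.4, 12.5 and 12.3 in Plk3-KO, against 12.8, 12.8 and 12.3 in WT (-0.23 ± 0.17, unadjusted p = 0.19, adjusted p = 0.98). Of the tested genes Prim1 alone had adult Plk3-KO arrays that all lay below the WT arrays, by 0.1 units at the nearest, against 3.37% of the 21005 probe sets tested at that age, so 1 of 32 genes is near the background.

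Genes under 7 in both adult groups were not tested between genotypes. Among them E2f2 read 1.9, 4.9 and 2.7 in Plk3-KO, against 6.5, 5.6 and 5.4 in WT, with no overlap, and with all 45037 probe sets tested its difference was -2.67 ± 0.55 (adjusted p = 0.44). A second E2f2 probe set, 1455790_at, ran the other way, with adult means of 4.87 in Plk3-KO and 3.67 in WT. E2f2 lies on chromosome 4, which also holds Plk3.

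**Figure D4:**
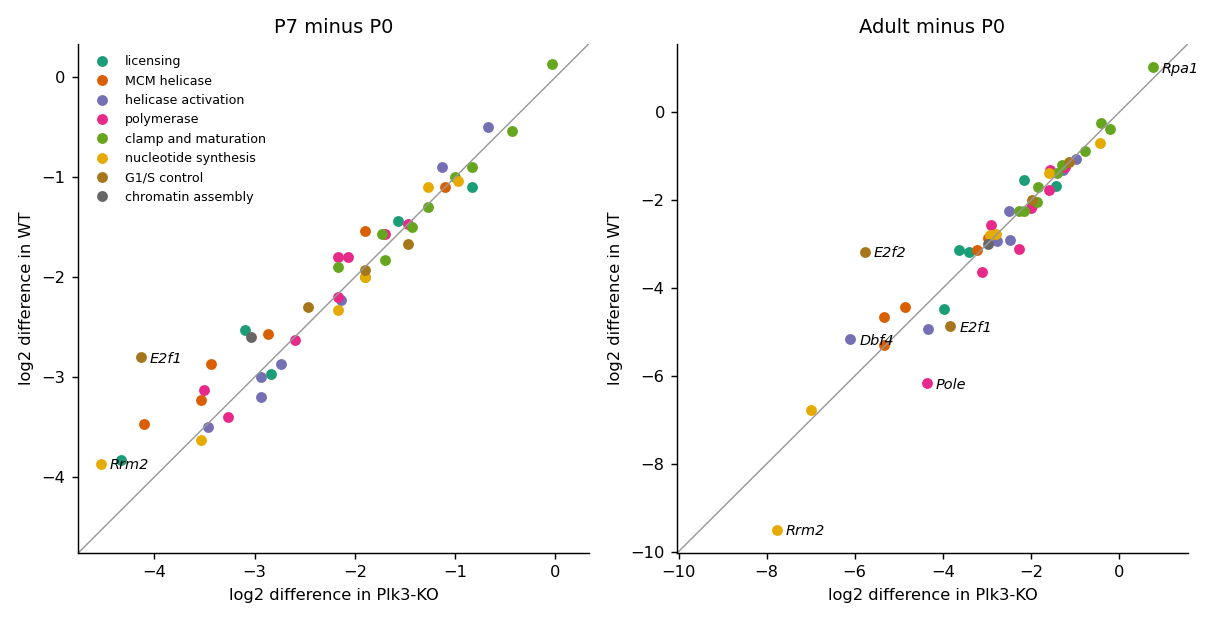
Change with age of each replication gene in Plk3-KO (horizontal) and WT (vertical) retinas, in log2 units, from P0 to P7 (left) and from P0 to the adult (right), colored by role. The points follow the line of equal change (r = 0.963 and 0.941), and those that leave it in the adult, E2f2, E2f1, Pole and Rrm2, have adult means under 7.

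Other lists changed with age beside the replication genes. The background for their counts is the share over all probe sets given above for the same comparison. The mean of the 47 genes was 10.49 to 10.64 on the P0 arrays, 8.23 to 8.73 on the P7 arrays and 7.74 to 7.93 on the adult arrays. The mean of 15 mitosis genes was 11.35 to 11.59 at P0, 7.11 to 8.24 at P7 and 4.91 to 5.44 in the adult, and all 15 were lower at P7 and in the adult in both genotypes. Mki67, a marker of cycling cells, had adult means under 7 and was in the adult at least 67-fold lower in Plk3-KO and 67-fold lower in WT (adjusted p = 2.8e-10 in Plk3-KO and 7.4e-11 in WT).

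The mean of 12 retinal progenitor markers was 11.43 to 11.72 at P0, 9.22 to 9.48 at P7 and 8.15 to 8.68 in the adult. In the adult 12 of the 12 were lower than at P0 in Plk3-KO and 11 were lower in WT. The mean of 8 rod photoreceptor markers was 7.85 to 8.88 at P0, 12.6 to 13.5 at P7 and 14.5 to 15.5 in the adult, and all 8 were higher at both later ages. At P0 12 progenitor and 5 rod markers had a mean above 7 in at least 1 genotype. The numbers were 11 and 8 at P7, and 10 and 8 in the adult. Nrl, the rod transcription factor, was named after its values were seen, and had P0 means of 12.37 in Plk3-KO and 12.47 in WT.

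Tissues next to the retina differed between arrays as well. The mean of 6 pigment epithelium markers was 6.07 to 7.5 at P0, 8.87 to 10.5 at P7 and 9.8 to 11.7 in the adult. The mean of 7 lens markers ranged from 4.14 to 13.7 at P0, from 4.27 to 5.77 at P7 and from 5.06 to 11.3 in the adult, while the P0 means of the 47 genes kept to the narrow range given above. Müller glia markers had means of 10.6 to 10.99 at P0, 10.81 to 11.06 at P7 and 11.96 to 12.45 in the adult. Endothelium markers ran from 6.35 to 7.25, from 8.01 to 9.03 and from 6.35 to 7.90, microglia markers from 6.90 to 7.83, from 8.54 to 9.05 and from 7.11 to 7.98, and astrocyte markers from 7.17 to 7.57, from 8.23 to 9.13 and from 8.03 to 8.60 at P0, P7 and adult age. Red blood cell markers stayed between 3.7 and 6.03. The part of these cell types in the fall was not tested.

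**Figure D5:**
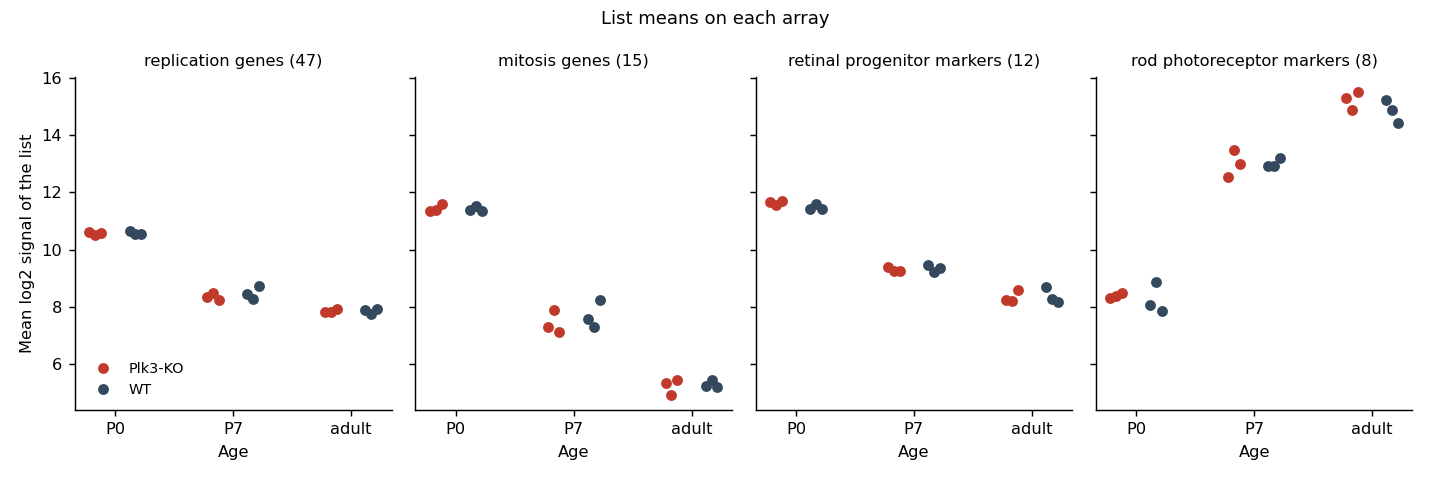
Mean log2 signal on each array of the 47 replication genes, 15 mitosis genes, 12 retinal progenitor markers and 8 rod photoreceptor markers at P0, P7 and adult age, with Plk3-KO left of WT. The replication genes lie at 10.49 to 10.64 at P0, 8.23 to 8.73 at P7 and 7.74 to 7.93 in the adult, and P7 WT array 3 is the highest P7 array for both the replication and the mitosis genes.

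Genes of the same processes outside the list were examined from lists of their own. Over all 25085 probe sets 9.66% were lower at P7 in Plk3-KO and 8.85% in WT. In the adult 24.2% were lower and 19.4% higher than at P0 in Plk3-KO, and 25.9% lower and 20.7% higher in WT. In none of these lists did the higher genes exceed those shares, so the higher genes named below are a description. Of 33 tested genes of the fork and its origins, 20 were lower at P7 in Plk3-KO and 18 in WT, and none was higher. In the adult 19 were lower and 2 higher in Plk3-KO, and 22 were lower and 3 higher in WT, with medians of -1.10 in Plk3-KO and -1.13 in WT. Where an adult mean lay under 7, the fall is given as a bound against that minimum. Exo1, a nuclease of mismatch and replication repair, was at least 4.29-fold lower in Plk3-KO and 3.91-fold lower in WT (adjusted p = 1.7e-06 in Plk3-KO and 1.1e-05 in WT), and Dscc1, of an alternative clamp loader, was at least 4.7-fold lower in Plk3-KO and 5.53-fold lower in WT (adjusted p = 0.00022 in Plk3-KO and 0.00031 in WT). Pole4 and Pold4, small accessory subunits of the polymerases, were higher in the adult. Pole4 differed by 0.90 in Plk3-KO and 0.73 in WT (adjusted p = 0.0010 in Plk3-KO and 0.0047 in WT), and Pold4 by 0.57 in Plk3-KO and 0.63 in WT (adjusted p = 0.040 in Plk3-KO and 0.023 in WT).

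Of 20 further nucleotide synthesis genes, 12 were lower and 2 higher in the adult in Plk3-KO, and 10 were lower and 3 higher in WT. Ppat, the first enzyme of purine synthesis, differed by -2.13 in Plk3-KO and -1.80 in WT (adjusted p = 1.9e-05 in Plk3-KO and 0.00010 in WT), and Dctd, which deaminates dCMP, was at least 1.52-fold lower in Plk3-KO and 1.52-fold lower in WT (adjusted p = 0.0046 in Plk3-KO and 0.087 in WT), which passed the test in Plk3-KO. Impdh1, the inosine monophosphate dehydrogenase known from photoreceptors, was higher by 3.13 in Plk3-KO and 2.87 in WT (adjusted p = 1.5e-07 in Plk3-KO and 4.4e-07 in WT). Rrm2b, the reductase subunit that serves cells outside S phase, was higher by 0.40 in Plk3-KO and 0.43 in WT (adjusted p = 0.036 in Plk3-KO and 0.024 in WT), while Rrm2 was lower. Tk2, the mitochondrial thymidine kinase, differed by 0.30 in Plk3-KO and 0.53 in WT (adjusted p = 0.16 in Plk3-KO and 0.016 in WT).

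Of 21 further G1/S and checkpoint genes, 16 were lower in the adult in Plk3-KO and 17 in WT, with 1 higher in each. Dtl, which targets Cdt1 for destruction, was at least 6.5-fold lower in Plk3-KO and 5.4-fold lower in WT (adjusted p = 5.3e-05 in Plk3-KO and 2.1e-06 in WT), and E2f8, a repressing E2F factor, was at least 9.85-fold lower in Plk3-KO and 8.38-fold lower in WT (adjusted p = 7.3e-05 in Plk3-KO and 0.00017 in WT). Rbl2, the pocket protein p130 of resting cells, was the one higher, by 0.77 in Plk3-KO and 0.97 in WT (adjusted p = 0.038 in Plk3-KO and 0.011 in WT). Atrip, the partner of the ATR kinase, had the next highest value, -0.27 in Plk3-KO and -0.20 in WT (adjusted p = 0.41 in Plk3-KO and 0.53 in WT). Of 15 chromatin genes coupled to replication, 12 were lower in Plk3-KO and 13 in WT and none was higher. Uhrf1, which guides maintenance DNA methylation, was at least 31.3-fold lower in Plk3-KO and 27.2-fold lower in WT (adjusted p = 2.8e-07 in Plk3-KO and 3.0e-07 in WT), and Cdca7, of a chromatin remodeler, was at least 6.96-fold lower in Plk3-KO and 6.65-fold lower in WT (adjusted p = 3.4e-06 in Plk3-KO and 2.6e-06 in WT). The histone chaperones Rbbp4 and Rbbp7 had the smallest differences, -0.10 in Plk3-KO and -0.33 in WT (adjusted p = 0.79 in Plk3-KO and 0.33 in WT) for Rbbp4 and -0.37 in Plk3-KO and -0.33 in WT (adjusted p = 0.27 in Plk3-KO and 0.31 in WT) for Rbbp7.

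Many of the 47 genes were read by more than 1 probe set. Of 55 further probe sets, 34 were above 7 at P0, and 25 of those were lower at P7 in both genotypes. In the adult 25 were lower than at P0 in both genotypes, and 32 of the 34 had a negative difference in both. A choice by P0 level favors a fall, and no share over all probe sets chosen in that way is given. These counts are thus a description only.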

How the data were processed

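RNA from isolated Plk3-KO and WT retinas was amplified and hybridized to Affymetrix mouse genome arrays (6 groups of 3). The authors deposited log2 values, made with MAS5 in the affy package and given to 1 decimal, for 45101 probe sets. The values were used as deposited, without 64 control probe sets, and 34945 probe sets carried 1 symbol. In R 4.3.3, limma 3.58.1 (statmod 1.5.0) estimated the 6 group means of each probe set with variances moderated along the mean, on 12 residual degrees of freedom, over 25085 probe sets with a group mean above 7. Benjamini-Hochberg adjustment ran over all of them, or, between genotypes, over those above 7 at that age. The number of arrays limits the precision. The study calls its samples biological replicates, and the number of animals behind an array is not given in its sources, so p-values measure the spread between these samples. Genes given with array values were those with the largest and smallest change to the adult in each role, the persisting genes and the 3 smallest genotype p values at each age. Pcna, Mki67 and Nrl were added after their values were seen. From each further list of replication genes the extremes in either direction were named. Members and lists were chosen with earlier results of these data known. The tests were tried on simulated data. Scaling, filters, tests, probe set rules, array weights, a replicate block and omitted arrays were varied.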

Additional observations from a re-analysis of the deposited data

How the results depend on the processing

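The counts of genes that were lower at P7 or in the adult than at P0 stayed within 1.5 times under every alternative run, and with 1 array left out they ran from 39 to 42 called genes (P7) and 41 to 45 (adult) in Plk3-KO, and from 39 to 41 (P7) and 43 to 44 (adult) in WT. The counts for adult minus P7 were the ones that moved. In Plk3-KO they were 5 genes with median centring, 1 with the methods' t-test and 7 to 12 with 1 array left out, the lowest without P7 Plk3-KO array 2. In WT they were 7 with median centring, 25 with array weights, 1 with the methods' t-test, 17 without the 4 arrays that stand apart and 9 to 14 with 1 array left out. The t-test pools no spread over genes, and otherwise the cause was not tested. Comparisons between genotypes kept 0 called genes with 1 array left out. With array weights, however, 2 genes (Rrm2 and E2f1) passed for the genotype difference in adult minus P7, and 1 (Mcm2) for adult Plk3-KO minus WT, at 1.94 (adjusted p = 0.0057). In the adult those weights favored array 2 of each genotype over the other arrays.

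Among single genes, the Cad difference from P0 in adult Plk3-KO was 0.20 with the mean over all its probe sets, Rfc2 in Plk3-KO was 0.067 and Fen1 in WT 0.13 with median centring, and Fen1 in WT was 0.11 with array weights. With 1 array left out, Fen1 in WT ran from -0.58 to 0.12, the highest without adult WT replicate 1, and Pola1 between genotypes at P0 from -0.72 to 0.083, the highest without P0 Plk3-KO replicate 3. None of these was called. Of 45 results for single genes, 19 alternatives ended a call and 6 brought one.

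The labels do not say that replicate numbers pair animals, and samples of equal number did not deviate together throughout (correlations of -0.61 to 0.54). Correlations between samples of unlike number ran from -0.63 to 0.63. The highest were at P7, at 0.63 for Plk3-KO array 3 with WT array 2 and 0.60 for Plk3-KO array 2 with WT array 3. With a replicate block the called genes numbered 40, 11 and 44 in Plk3-KO and 40, 11 and 44 in WT for P7 minus P0, adult minus P7 and adult minus P0, and 0 between genotypes. That block goes by number, so it does not join the P7 arrays that deviated together and cannot account for their shared deviation. Signals under 7 limit what can be said of size for the 15 genes whose adult means lay below it in both genotypes.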
